A study of Mus musculus with 11 samples.

Results

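Transcripts of the MHC class II antigen presentation pathway were followed in mouse hearts through 8 genes, namely Cd74, H2-Aa, H2-Ab1, H2-Eb1, H2-DMa, H2-DMb1, H2-DMb2 and Ciita. They were taken as the rows of the deposited expression table whose RefSeq accession maps to these symbols, 8 of 21878 rows, and 6 of them were among the 10891 rows abundant enough for the test across genes. All hearts came from female mice labelled wild type. The PCOS group (n = 5) had been exposed before birth to anti-Müllerian hormone, a treatment that models polycystic ovary syndrome, and the control group (n = 6) had received phosphate-buffered saline before birth. The labels used here give neither strain, age at collection nor hormone dose. Nor do they tie hearts to mothers or litters, and since separate animals are not stated, the p-values cover only the spread of these libraries, which may be technical. Each library is 1 column of FPKM, the fragments counted per kilobase of gene model, scaled to the size of the library.

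MHC class II molecules are heterodimers of an alpha and a beta chain that carry peptides from the endocytic route to the cell surface, where CD4+ T cells read them. Newly made dimers bind the invariant chain Cd74, which blocks the peptide groove until lysosomal proteases cut it back to a short fragment, and H2-DM then exchanges that fragment for an antigen peptide. Ciita is the coactivator that assembles on the X and Y boxes of class II promoters, and in the heart the pathway is known mainly from macrophages, dendritic cells and B cells, and from vessel cells exposed to interferon-gamma.

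The promoters of 4 members are shown because the results below ask whether these genes move together, and the letters of the X and Y boxes known from class II promoters were searched in them. RefSeq promoters of GRCm38.p6, from 250 bases before to 50 bases after a start site, were matched for 5 of the 8 members (not for Cd74, H2-Ab1 and Ciita). They are printed 5′ to 3′ on the strand of the gene, and capitals mark an X box core (searched as CNGATGATG) and a Y box (searched as TGATTGG), each on both strands. The letters of both motifs were chosen after the sequences had been read.
H2-Aa, chr17:34287774-34288073, minus strand: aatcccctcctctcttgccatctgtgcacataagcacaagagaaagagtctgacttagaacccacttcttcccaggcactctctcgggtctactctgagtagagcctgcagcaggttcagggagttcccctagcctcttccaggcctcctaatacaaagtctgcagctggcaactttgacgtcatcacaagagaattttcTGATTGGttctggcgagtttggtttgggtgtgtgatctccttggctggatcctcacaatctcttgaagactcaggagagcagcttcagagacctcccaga
H2-Eb1, chr17:34305617-34305916, plus strand: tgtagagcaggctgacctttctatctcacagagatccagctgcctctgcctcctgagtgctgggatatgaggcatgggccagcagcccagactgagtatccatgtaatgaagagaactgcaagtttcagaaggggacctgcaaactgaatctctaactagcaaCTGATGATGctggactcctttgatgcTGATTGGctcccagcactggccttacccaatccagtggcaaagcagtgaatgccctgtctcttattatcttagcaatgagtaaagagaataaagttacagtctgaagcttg
H2-DMb1, chr17:34152941-34153240, plus strand: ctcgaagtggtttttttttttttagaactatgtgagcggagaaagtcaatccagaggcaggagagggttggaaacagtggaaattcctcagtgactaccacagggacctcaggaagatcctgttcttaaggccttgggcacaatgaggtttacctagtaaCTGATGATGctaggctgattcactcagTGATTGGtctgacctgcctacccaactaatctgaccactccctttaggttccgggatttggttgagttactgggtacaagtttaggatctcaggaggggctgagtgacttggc
H2-DMb2, chr17:34144999-34145298, plus strand: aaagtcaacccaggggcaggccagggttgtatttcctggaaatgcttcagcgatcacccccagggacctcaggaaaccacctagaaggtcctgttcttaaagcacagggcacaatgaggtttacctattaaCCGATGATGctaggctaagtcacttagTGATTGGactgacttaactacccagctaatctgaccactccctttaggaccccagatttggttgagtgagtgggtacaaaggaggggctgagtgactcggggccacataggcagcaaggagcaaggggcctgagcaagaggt
In H2-Eb1 the X box core began 87 bases and the Y box 61 bases before the start site, with 17 bases between them. H2-DMb1 had its core at 90 and its Y box at 63 bases before the start, with 18 bases between them. H2-DMb2, whose printed start lies inside the span of the gene, had them at 119 and 92, again with 18 bases between them. The H2-Aa window held a Y box 50 bases before the start and no match to the X box letters. The windows of the 2 H2-DMa start sites held neither. Both of these starts lie inside the span of the gene, and other starts of H2-DMa were not searched. No printed X match overlapped a Y match. Among all 32851 promoters of the same length, 0.956% held the X letters, 7.82% the Y letters and 0.0639% both. A match is a description of the letters and not of a bound site. Other forms of the X box were not searched, so a missing match does not show that a window lacks one.

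Cd74, H2-Aa, H2-Ab1 and H2-Eb1 were readily detected in every heart, the DM chains were low and Ciita was the lowest, and no member had a group difference that passed its test. Of all tested rows, 15 of 10891 (0.138%) passed an adjusted p of 0.05 (limma), every one of them higher in PCOS and none lower (0.0%), against 0 of the 6 class II genes in the fit. At an unadjusted p under 0.05 the count was 727 rows (6.68%) and 0 class II genes, and limma's voom on reads recovered from the table also called 0 of the 6. In 76 rows (0.698%) the groups did not overlap, with all PCOS hearts above all controls in 49 (0.45%) and below in 27 (0.248%), whereas the groups overlapped in 8 of 8 class II genes. The median group difference of the 6 (PCOS minus control, in units of log2(FPKM + 1)) was 0.00, beside 0.0017 for all tested rows. In whole hearts, fewer cells of a type and less RNA per cell cannot be told apart.

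Libraries carried 11866471 to 14346770 recovered reads. All 6 cardiomyocyte markers matched in the table were present in every heart, with a sum of 30823 to 36882 FPKM. Control 6 also held liver transcripts (Alb at 852 FPKM, against at most 1.06 FPKM elsewhere). Controls 2 and 5 had Apoe at 6.04 and 8.29 FPKM, against 98.8 to 486 FPKM in the other 9 hearts, although all 11 are labelled wild type. Leaving out control 6, controls 2 and 5, or all 3 of these gave 0 class II genes called each time, with a median difference of 0.07, −0.0039 and 0.13.

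Cd74, the invariant chain, was the most abundant member (row NM_001042605.1, chromosome 18, 60803849 to 60812652 in GRCm38). The 6 controls ran from 43.1 FPKM through a median of 63.4 FPKM to 82.1 FPKM, and PCOS hearts 1 to 5 had 74.1, 91.1, 47.1, 53.5 and 61.0 FPKM. The highest heart, PCOS 2, and the second lowest, PCOS 3, thus belonged to the same group. The control mean was 63.8 ± 12.9 FPKM (SD, n = 6) and the PCOS mean 65.4 ± 17.5 FPKM (SD, n = 5). The log2 difference was 0.02 (SE 0.17, 95% confidence interval −0.35 to 0.40, limma adjusted p = 0.980). On the scale of FPKM + 1 that interval runs from 0.782-fold to 1.32-fold.

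H2-Aa encodes the alpha chain of the classical molecule I-A (row NM_010378.2, chromosome 17, 34282744 to 34287823). Controls ran from 32.4 FPKM through a median of 38.6 FPKM to 56.2 FPKM, and PCOS hearts 1 to 5 had 48.7, 63.7, 31.4, 36.1 and 32.9 FPKM. Control 6 and PCOS 2 stood above the other hearts of their groups. The means were 40.4 ± 8.33 FPKM (SD, n = 6) and 42.6 ± 13.7 FPKM (SD, n = 5), with a log2 difference of 0.04 (SE 0.18, 95% interval −0.34 to 0.43, limma adjusted p = 0.958). Without control 6, the library with liver transcripts, the difference was 0.14.

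H2-Ab1, the beta chain that pairs with H2-Aa (row NM_207105.3, chromosome 17, 34263227 to 34269418), ran from 18.9 FPKM through a median of 29.4 FPKM to 37.0 FPKM in controls. PCOS hearts 1 to 5 had 32.7, 37.7, 22.3, 25.8 and 22.3 FPKM. The lowest heart was control 4 and the highest PCOS 2, so the PCOS values lay almost wholly inside the control range. The means were 28.7 ± 6.18 FPKM (SD, n = 6) and 28.2 ± 6.82 FPKM (SD, n = 5), and the log2 difference was −0.03 (SE 0.17, 95% interval −0.39 to 0.33, limma adjusted p = 0.969).

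H2-Eb1, a beta chain of the second classical molecule, I-E (row NM_010382.2, chromosome 17, 34305867 to 34316674), ran from 17.1 FPKM through a median of 21.0 FPKM to 28.8 FPKM in controls. PCOS hearts 1 to 5 had 24.0, 29.2, 16.2, 19.4 and 19.6 FPKM. Here PCOS 2 was highest and PCOS 3 lowest, and the controls lay between them. The means were 21.5 ± 4.47 FPKM (SD, n = 6) and 21.7 ± 5.02 FPKM (SD, n = 5), and the log2 difference was 0.01 (SE 0.15, 95% interval −0.32 to 0.34, limma adjusted p = 0.989).

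The DM chains, which load peptides inside the cell and do not present them at the surface, had means near 3 FPKM or lower. H2-DMb1 (row NM_010387.3, chromosome 17, 34153191 to 34160229) ran from 2.53 FPKM through a median of 3.33 FPKM to 3.82 FPKM in controls and stood at 3.40, 4.16, 2.50, 2.34 and 3.18 FPKM in PCOS hearts 1 to 5. PCOS hearts gave both the highest and the lowest values. The means were 3.23 ± 0.555 FPKM (SD, n = 6) and 3.12 ± 0.736 FPKM (SD, n = 5), and the log2 difference was −0.05 (SE 0.12, 95% interval −0.31 to 0.22, limma adjusted p = 0.930).

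H2-DMb2 (row NM_010388.4, chromosome 17, 34143229 to 34151553) rested on 2 to 22 reads a heart. It ran from 0.201 FPKM through a median of 1.23 FPKM to 2.02 FPKM in controls and stood at 1.04, 2.20, 0.532, 0.882 and 1.02 FPKM in PCOS hearts 1 to 5. Control 4 was far below the rest with its 2 reads, and the top values were shared by PCOS 2 and control 2. The means were 1.16 ± 0.586 FPKM (SD, n = 6) and 1.13 ± 0.629 FPKM (SD, n = 5), and the log2 difference was −0.01 (SE 0.22, 95% interval −0.48 to 0.46, limma adjusted p = 0.992), the widest interval of the 6 fitted genes. H2-DMb1 and H2-DMb2 are near-identical neighbours, and which of them a given read came from is uncertain.

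H2-DMa and Ciita fell under the abundance filter (a mean of 1 FPKM) and were tested singly by an exact permutation test over all ways to divide the 11 hearts into groups of 6 and 5, whose smallest possible two-sided p is 0.0022. H2-DMa, the alpha chain of DM (row XM_006523684.3, chromosome 17, 34119693 to 34139101), ran from 0.594 FPKM through a median of 0.713 FPKM to 0.731 FPKM in controls. PCOS hearts 1 to 5 had 0.817, 0.844, 0.574, 0.521 and 0.547 FPKM, so that 2 PCOS hearts lay above and 3 below all 6 controls. The means were 0.683 ± 0.0610 FPKM (SD, n = 6) and 0.661 ± 0.156 FPKM (SD, n = 5), with a log2 difference of −0.02 (exact two-sided permutation p = 0.688).

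Ciita, the class II coactivator (row XM_006521724.2, chromosome 16, 10480014 to 10531064), was counted with 11 to 33 reads a heart. Controls ran from 0.141 FPKM through a median of 0.197 FPKM to 0.311 FPKM, and PCOS hearts 1 to 5 had 0.207, 0.314, 0.102, 0.338 and 0.175 FPKM. Its highest heart was PCOS 4, which ranked 7 or lower of 11 in each of the other 7 members, and its lowest was PCOS 3. The means were 0.216 ± 0.0726 FPKM (SD, n = 6) and 0.227 ± 0.0984 FPKM (SD, n = 5), with a log2 difference of 0.01 (exact two-sided permutation p = 0.853).

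**Figure D1:**
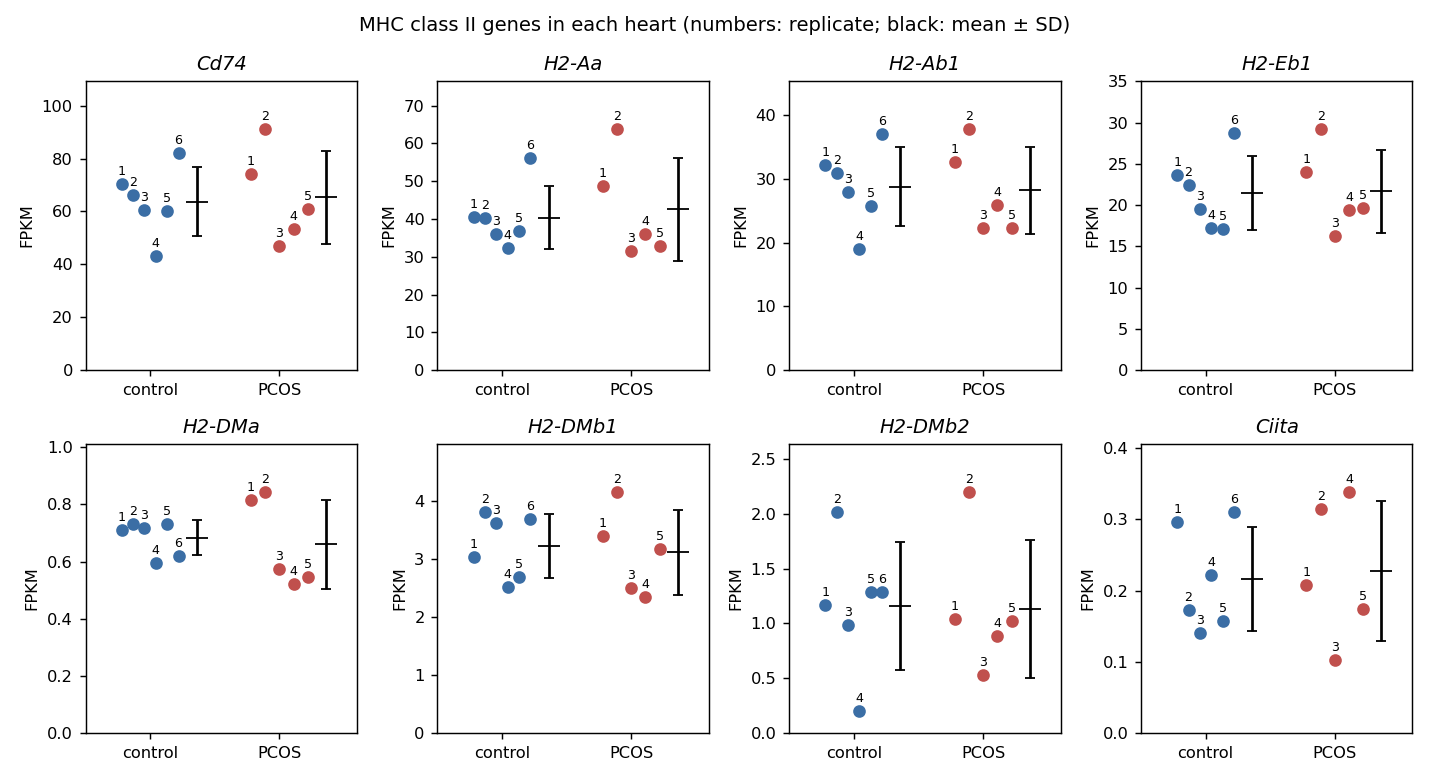
FPKM of the 8 class II genes in each heart, with a y axis from 0 for each gene, points numbered by replicate, controls in blue (n = 6), PCOS in red (n = 5) and black bars for mean ± SD. The groups overlap in all 8 panels, and PCOS 2 is the highest point in 7 of them.

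The order of the per-length levels was steady from heart to heart. Cd74 exceeded H2-Aa in 11 of 11 hearts by 1.33-fold to 1.86-fold, H2-Aa exceeded H2-Ab1 in 11 of 11 by 1.26-fold to 1.71-fold, and H2-Ab1 exceeded H2-Eb1 in 11 of 11 by 1.10-fold to 1.50-fold. Between the presenting chains and the DM chains, H2-Eb1 was at 5.37-fold to 8.29-fold the level of H2-DMb1. H2-DMb1 exceeded H2-DMb2 in 11 of 11 hearts by 1.89-fold to 12.5-fold, the top value in control 4 with its 2 reads of H2-DMb2. H2-DMb2 exceeded H2-DMa in 9 of 11, so these neighbours were not separated, and H2-DMa exceeded Ciita in 11 of 11. The ratio of Cd74 to H2-Aa stood at 1.58 ± 0.153 (SD, n = 6) in controls and 1.56 ± 0.170 (SD, n = 5) in PCOS, and that of H2-Aa to H2-Ab1 at 1.42 ± 0.172 (SD, n = 6) and 1.49 ± 0.117 (SD, n = 5).

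The lower end of this order depends on the length by which each row was divided. The steps of the FPKM values imply 6794 bases for the H2-DMa row, where the shortest curated transcript has 1658 bases, and with that shorter length its mean level over the 11 hearts would be 2.76 FPKM in place of 0.673 FPKM. For H2-DMb2 the implied 785 bases are fewer than the 1424 bases of the curated transcript, which would give 0.633 FPKM in place of 1.15 FPKM. For Ciita they were 7500 and 3953 bases, giving 0.421 FPKM in place of 0.221 FPKM. Such a divisor is the same in every heart and leaves the group differences of a gene unchanged before the pseudocount is added. The long H2-DMa model overlaps Brd2, Ciita overlaps Dexi and H2-Eb1 overlaps Gm20513, each on the opposite strand, and whether counting used strand is not given in the sources used here.

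Between hearts the class II genes varied more than most. The SD of log2(FPKM + 1) over the 11 hearts was larger than in 94.0% of tested rows for Cd74, 94.5% for H2-Aa, 93.2% for H2-Ab1 and 90.7% for H2-Eb1. Within H2-DMb1 it exceeded 77.9% and within H2-DMb2 96.9% of rows. H2-DMb2 had only 2 to 22 reads a heart, and how much of its SD is counting error was not tested. The highest heart had 2.11 times the Cd74 level of the lowest, 2.03 times the H2-Aa level and 1.80 times the H2-Eb1 level. PCOS 2 ranked first in 7 of the 8 genes and second in Ciita. Control 6 ranked second in Cd74, H2-Aa, H2-Ab1 and H2-Eb1 with PCOS 1 next after it, while control 4 and PCOS 3 were among the 3 lowest in all 4.

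Cd74 and the presenting chains varied together from heart to heart. All 28 pairs of members were correlated on the log2(FPKM + 1) scale over the 11 hearts, with p-values from 100000 permutations adjusted over the 28. Cd74 and H2-Ab1 had r = 0.94 and rho = 0.90 (permutation p = 4e-05 for r and 0.00042 for rho, adjusted to 0.00028 and 0.0029). Cd74 and H2-Eb1 had r = 0.93 and rho = 0.95 (permutation p = 3e-05 and 2e-05), and Cd74 and H2-Aa r = 0.91 and rho = 0.91 (permutation p = 5e-05 and 0.00027). Over the 6 pairs among these 4 genes r lay between 0.91 and 0.94. Without the 2 hearts farthest from the median of the first gene it lay between 0.85 and 0.92, and within the 6 controls alone between 0.86 and 0.99.

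The DM chains followed Cd74 less closely. They had 39 to 68 (H2-DMb1), 2 to 22 (H2-DMb2) and 46 to 75 (H2-DMa) reads a heart, and how far counting error lowers r was not tested. Cd74 had r = 0.83 with H2-DMb1 (rho = 0.82, adjusted permutation p = 0.0064 for r), and r = 0.83 with H2-DMb2 (rho = 0.83, adjusted permutation p = 0.0064). Without the 2 hearts farthest from the median of Cd74 these were 0.74 and 0.61. With H2-DMa it had r = 0.66 (rho = 0.62, adjusted permutation p = 0.0483 for r and 0.0658 for rho), and without those hearts 0.51.

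Ciita, the shared coactivator, tracked the chains loosely at the level that could be counted. Its r with Cd74 was 0.47 (rho = 0.40, permutation p = 0.148, adjusted to 0.166), and over its 7 pairs r lay between 0.0153 and 0.65. The pair of Ciita and H2-Eb1 was the only one of the 7 with an adjusted permutation p under 0.05 (r = 0.65, adjusted permutation p = 0.0484; rho = 0.56, adjusted to 0.1035). Without the 2 farthest hearts that r was 0.43. The few reads of Ciita limit any such relation, and how far counting error lowers it was not tested.

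**Figure D2:**
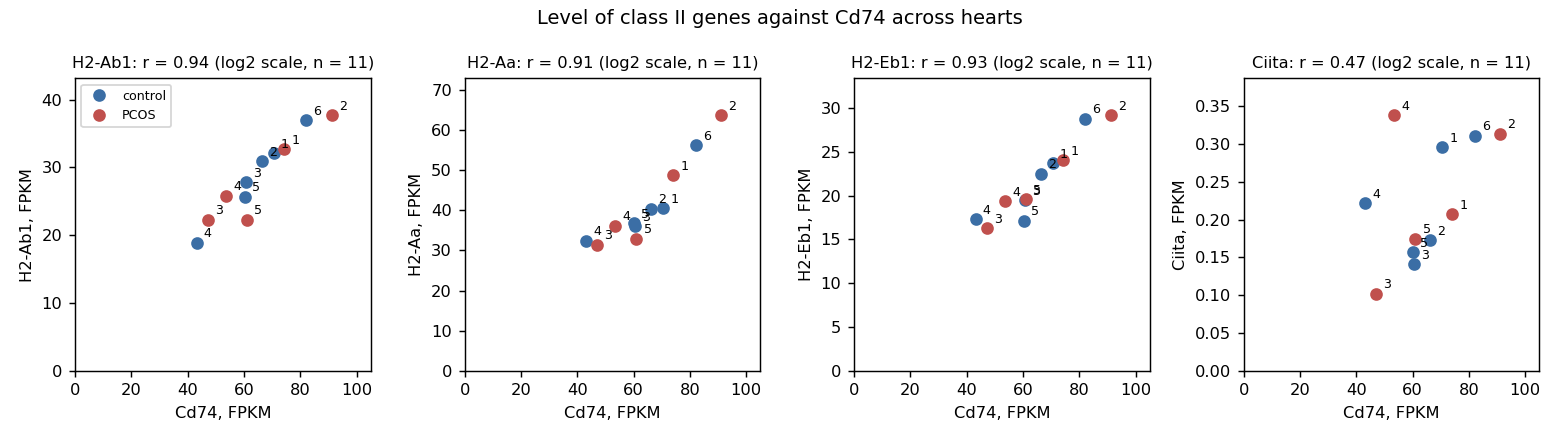
FPKM of H2-Ab1, H2-Aa, H2-Eb1 and Ciita (y axes) against FPKM of Cd74 (x axes) in 11 hearts, numbered by replicate, controls in blue and PCOS in red, with r on the log2(FPKM + 1) scale above each panel. The 3 presenting chains lie along a line with r of 0.91 to 0.94 and both groups spread along it, while Ciita scatters (r = 0.47).

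Set against all other rows, H2-Ab1 was closer to Cd74 than any of the 10885 tested rows outside the pathway, 1 row was closer than H2-Eb1 and 2 were closer than H2-Aa. H2-DMb2 had 45 such rows ahead of it, H2-DMb1 49, H2-DMa 646 and Ciita 2078. Of the 8 rows with a symbol outside the pathway most like Cd74 by Pearson r over the 11 hearts, those given here are Cfp, the complement regulator properdin (r = 0.90), Rasip1, a regulator of endothelial small GTPases (0.89), Cyren (0.89), Shisa5 (0.89), Myef2 (0.89), the splicing factor U2af1 (0.89) and the nuclear body protein Sp110 (0.88). This list depended on single hearts. When 1 heart was left out, 1 to 5 of the 8 stayed among the first 8.

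Genes that act on class II molecules before and after assembly were compared in the same way, and no list held a called gene. Some listed genes had no matched row and were not analysed. Among chains and promoter factors these were H2-Ob, H2-Ea-ps, Rfx5 and Nfya. Elsewhere they were Lgmn (processing), Marchf1 (turnover), H2-K1 (class I), and Iigp1 and Irgm1 (interferon-gamma targets). Among the other class II chains, H2-Oa and H2-Eb2 were under the filter with at most 10 and 5 reads a heart. The factors that bind class II promoters beside Ciita gave 0 of 5 called, 3 higher and 2 lower. Rfxap, a subunit of the X box complex RFX, had means of 7.44 ± 0.508 FPKM (SD, n = 6, controls) and 7.02 ± 0.698 FPKM (SD, n = 5, PCOS), and Nfyb, a subunit of the Y box factor NF-Y, of 5.21 ± 0.401 and 5.03 ± 0.402 FPKM. Their log2 differences were −0.08 and −0.04 (limma adjusted p = 0.809 and 0.882).

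The interferon-gamma route, the main inducer of Ciita outside professional antigen-presenting cells, gave 0 of 6 called, with 1 gene higher, 5 lower and a median of −0.08. The kinases of its receptor, Jak2 and Jak1, had log2 differences of −0.17 (SE 0.09, limma adjusted p = 0.738) and −0.09 (SE 0.08, limma adjusted p = 0.808). Ifng itself had at most 1 read in a heart, and like Socs1 it was under the filter and not tested. Among the interferon-gamma target genes Cxcl10 was under the filter. Of the rest 0 of 10 were called, 4 higher and 6 lower with a median of −0.08. The GTPases Gbp6 and Irgm2 had the smallest p there, with differences of −0.19 (SE 0.09, limma adjusted p = 0.738) and −0.16 (SE 0.15, limma adjusted p = 0.811).

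Of the processing genes 0 of 7 were called, 4 higher and 3 lower with a median of 0.05. In 3 of the 7 (Ifi30, Ctss and Ctsb) all PCOS hearts lay above all controls, as they did in 0.45% of all tested rows, and in the other 4 the groups overlapped. Ifi30, the lysosomal thiol reductase GILT that unfolds antigens for class II loading, ran from 5.25 FPKM through a median of 6.44 FPKM to 8.09 FPKM in controls and stood at 9.89, 10.3, 10.5, 8.48 and 11.7 FPKM in PCOS hearts 1 to 5. Every PCOS heart lay above every control. The means were 6.64 ± 1.02 FPKM (SD, n = 6) and 10.2 ± 1.17 FPKM (SD, n = 5), with a log2 difference of 0.55 (SE 0.10, limma adjusted p = 0.0590). It passed in 6 of 22 alternative fits, whose adjusted p ran from 0.00626 to 0.399, among them the fit without control 6 (adjusted p = 0.0165).

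Ctss, cathepsin S, is the protease that makes the last cuts in the invariant chain. It ran from 4.60 FPKM through a median of 8.99 FPKM to 12.2 FPKM in controls and stood at 13.8, 15.9, 19.7, 15.8 and 14.1 FPKM in PCOS hearts 1 to 5, again without overlap. The means were 8.53 ± 2.86 FPKM (SD, n = 6) and 15.8 ± 2.35 FPKM (SD, n = 5), with a log2 difference of 0.87 (SE 0.19, limma adjusted p = 0.232). It passed in 3 of 22 alternatives, with a range of adjusted p of 0.0183 to 0.597, including the fit without control 6 (adjusted p = 0.0469). Ctsb, cathepsin B, is named after its values were seen (log2 difference 0.16, SE 0.06, limma adjusted p = 0.738).

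Cd83, which holds class II molecules at the surface by opposing the ligase Marchf1, also had no overlap between the groups. It ran from 1.70 FPKM through a median of 3.04 FPKM to 3.60 FPKM in controls and stood at 4.19, 4.59, 5.27, 3.74 and 4.29 FPKM in PCOS hearts 1 to 5. The log2 difference was 0.51 (SE 0.13, limma adjusted p = 0.410), and 1 of 21 alternatives called it (adjusted p from 0.0458 to 0.952). Marchf8, a ligase that sends class II molecules for degradation, differed by −0.09 (SE 0.08, limma adjusted p = 0.809), and the turnover list as a whole gave 0 of 4 called, 1 higher and 3 lower.

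Costimulatory genes gave 0 of 3 called. Cd80, Cd86 and Pdcd1lg2, also on that list, were under the filter and not tested. Their means were 0.191, 0.559 and 0.0267 FPKM in controls and 0.250, 0.867 and 0.0210 FPKM in PCOS, with overlap in each. Cd274, the inhibitory ligand PD-L1, had a difference of 0.10 (SE 0.17, limma adjusted p = 0.891) and Cd40, the receptor through which T cells activate presenting cells, by −0.05 (SE 0.13, limma adjusted p = 0.931). The class I pathway, which serves CD8+ T cells and shares the coactivator family of Ciita through Nlrc5, gave 0 of 17 called, with 12 higher, 5 lower and a median of 0.04. Its smallest p belonged to Erap1, the trimming peptidase, with a difference of −0.16 (SE 0.07, limma adjusted p = 0.738), followed by Tapbp, tapasin, at 0.10 (SE 0.07, limma adjusted p = 0.774).

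**Figure D3:**
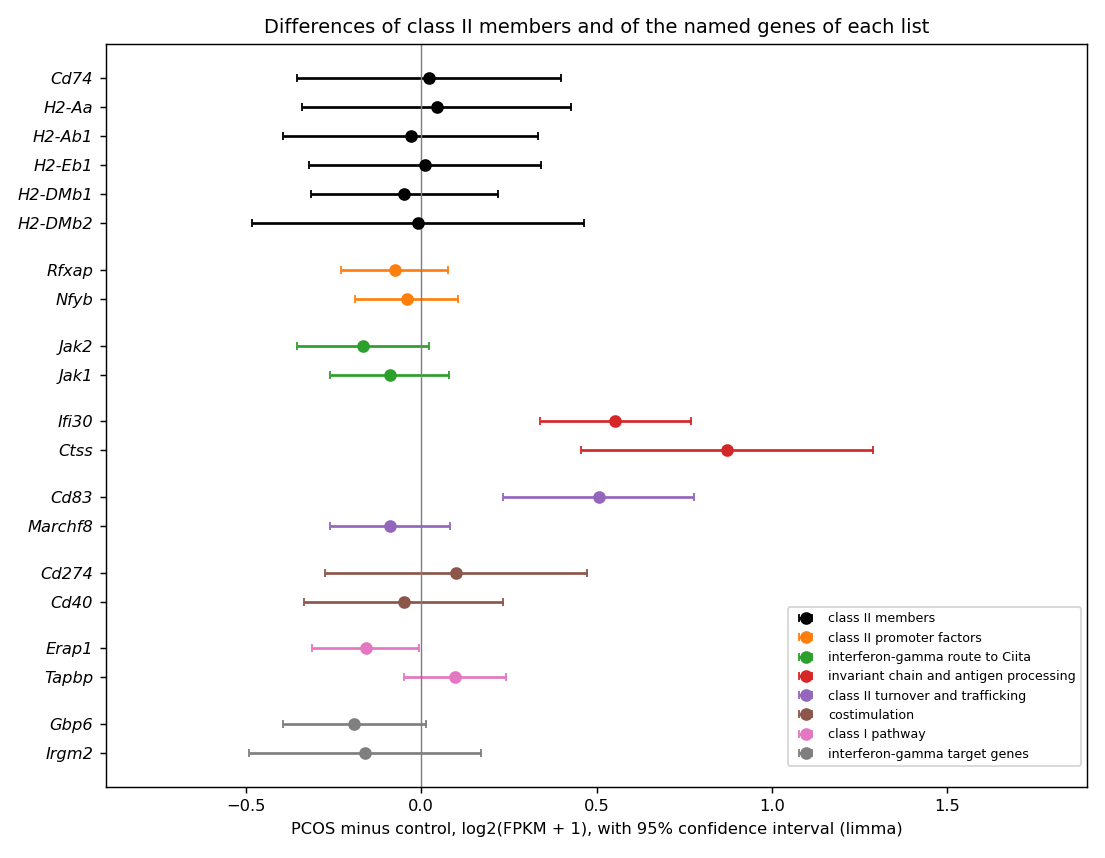
Group difference (PCOS minus control, in units of log2(FPKM + 1)) with 95% confidence intervals from limma, for the 6 class II genes in the fit (black) and the 2 genes with the smallest p in each related list (colours). The class II genes lie within 0.05 of 0, and Ifi30, Ctss and Cd83 lie at 0.51 to 0.87 with intervals to the right of 0.

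The ratio of class II genes to Ctss is given as a description with no test, since Ctss was chosen as the reference after its values were seen. Ctss was itself higher in every PCOS heart than in every control (log2 difference 0.87), so the lower ratios in PCOS come from the reference. Cd74 was at 7.90 ± 1.75 times the Ctss level (SD, n = 6) in controls and 4.24 ± 1.38 times (SD, n = 5) in PCOS, with overlap. The ratio of H2-Ab1 to Ctss was 3.56 ± 0.824 (SD, n = 6) in controls and 1.82 ± 0.541 (SD, n = 5) in PCOS, and lower in every PCOS heart than in every control. That of H2-DMb1 was 0.415 ± 0.143 and 0.202 ± 0.0606, with PCOS 2 (0.262) above control 5 (0.254). The ratios of H2-Aa, H2-Eb1 and H2-DMb2 to Ctss also overlapped between the groups.

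The class II genes were also set against 2 leukocyte genes, Ptprc (CD45) and C1qa, a complement chain made by macrophages. These had group differences of their own of 0.21 (SE 0.15, limma adjusted p = 0.771) and 0.55 (SE 0.17, limma adjusted p = 0.738), which are subtracted from every member, so the sign of each relative value comes from the reference. Relative to Ptprc the 6 differences ran from −0.26 to −0.17 log2, and relative to C1qa from −0.60 to −0.51. By exact two-sided permutation over the 11 hearts, adjusted over the 12 pairs, 0 of 12 passed (adjusted p from 0.178 to 0.426). The smallest was H2-DMb1 relative to C1qa (−0.60, exact permutation p = 0.0346, adjusted to 0.178).

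**Figure D4:**
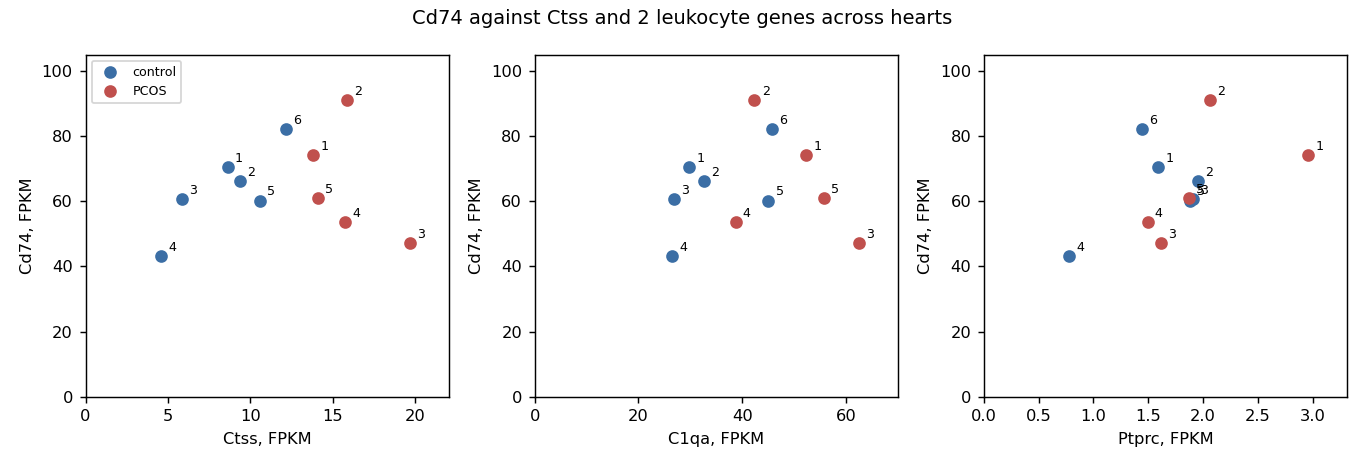
FPKM of Cd74 (y axes) against FPKM of Ctss, C1qa and Ptprc (x axes) in 11 hearts, numbered by replicate, controls in blue and PCOS in red. PCOS hearts lie to the right for Ctss, from 13.8 to 19.7 FPKM against at most 12.2 FPKM in controls, at Cd74 levels of 47.1 to 91.1 FPKM against 43.1 to 82.1 FPKM in controls.

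Marker lists of cell types, among them cells that can carry class II molecules, were set beside Cd74. Over 14 lists, the summed marker level was correlated with Cd74 across the 11 hearts with adjustment over the 14, and 3 passed for r. Control 4, the lowest heart for Cd74, was also lowest in the B cell, dendritic cell, macrophage, T cell, endothelial, fibroblast and lymphoid tissue sums. Its atrial sum was the highest (1476 FPKM), and its cardiomyocyte, monocyte and liver sums were neither lowest nor highest. Fibroblast markers, which did not pass, had r = 0.59, and 0.92 within the controls. How far tissue make-up enters these correlations was not tested. B cell markers (8 of 10 matched, none at 0 in any heart) summed to 4.77 to 10.3 FPKM in controls and 5.82 to 9.48 FPKM in PCOS, and had r = 0.85 and rho = 0.85 with Cd74 (permutation p = 0.0013 for each, adjusted to 0.0092 and 0.0093). Without the 2 hearts farthest from the median of the sum r was 0.73, and within the controls 0.89. Endothelial markers (8 of 9 matched) summed to 231 to 400 FPKM and 269 to 350 FPKM, with r = 0.80 and rho = 0.75 (permutation p = 0.0028 and 0.0112, adjusted to 0.0129 and 0.0524), and r = 0.62 without the 2 farthest hearts. The lymphoid tissue list (6 of 7 matched) had r = 0.87 and rho = 0.88 (permutation p = 0.00044 and 0.00061, adjusted to 0.0062 and 0.0085) and r = 0.87 without the 2 farthest. Its sum was nearly all Ccl21a, a chemokine of lymphatic vessels and of lymph node stroma. Of its lymphocyte genes, Rag1 was at 0 in all 11 hearts. Cr2, also in the B cell list, was at 0.0203 to 0.129 FPKM. What part these cells have in the class II level was not tested.

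Dendritic cell markers (10 of 10 matched, with Flt3 at 0 in 2 hearts and Cd209a in 1) summed to 3.30 to 6.33 FPKM in controls and 5.32 to 8.83 FPKM in PCOS. Their r with Cd74 was 0.70 and rho 0.70 (permutation p = 0.0167 and 0.0203, adjusted to 0.0584 and 0.0711), and 0.52 without the 2 farthest hearts. Only 2 of the 10 passed the abundance filter, Zbtb46 and Clec10a, named after their values were seen. Zbtb46 stood at 2.14 to 3.16 FPKM in controls and 2.33 to 3.26 FPKM in PCOS. Clec10a stood at 0.211 to 1.79 FPKM and 1.39 to 3.16 FPKM. Which cells hold these transcripts was not tested. Macrophage markers (8 of 10 matched) summed to 131.5 to 252.9 FPKM in controls and 279.9 to 390.1 FPKM in PCOS, with 7 of 7 tested members higher in PCOS and 1 of them, Cd68, called. Over all 11 hearts r with Cd74 was 0.17 and rho 0.14 (permutation p = 0.605 and 0.692, adjusted to 0.651 and 0.714). Without the 2 farthest hearts r was −0.39. Since this sum did not overlap between the groups, these values mix the group difference with the spread within groups. Within the 6 controls r with Cd74 was 0.74 and rho 0.37 (exact permutation p = 0.0931 and 0.497, not adjusted). Within the 5 PCOS hearts, too few for a test, r was −0.60. T cell markers (10 of 10 matched, Trat1 at 0 in 4 hearts) summed to 3.70 to 6.64 FPKM and 4.60 to 9.82 FPKM, with r = 0.53 and rho = 0.54 (permutation p = 0.0885 and 0.0942). Cd4, the T cell receptor partner that binds class II molecules, is named after its values were seen. It stood under the filter at 0.149 to 0.434 FPKM in controls and 0.482 to 0.970 FPKM in PCOS, without overlap. The groups overlapped in every other T cell marker matched. The share of rows under the filter without overlap was not counted.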

How the data were processed

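RNA-seq values of 11 hearts were used. Per the labels' protocols, a mirVana kit gave the RNA and a stranded TruSeq mRNA kit the libraries. Per the submitters' processing notes, the tools were HISAT2 2.2.1, HTSeq 0.13.5, DESeq2 1.18.1, Trimmomatic 0.38 and FastQC 0.11.9, with R 3.4.1 and the build mm10, without settings or roles. The authors deposited FPKM for 21878 rows named by RefSeq accession, which were used unscaled. Symbols came from a RefSeq table of GRCm38.p6 and matched 87.2% of rows. FPKM values are whole multiples of the worth of 1 read, and all 17237 rows above 0 gave whole reads (100%, tolerance 0.05), from which depths and read numbers were recovered. The test was limma 3.58.1 in R 4.3.3 (eBayes, trend) on log2 values of FPKM + 1 for rows averaging at least 1 FPKM, adjusted by Benjamini-Hochberg over all 10891 rows, and tested on simulated data. Adding 1 understates the change of low genes. Called means an adjusted p under 0.05. Members, lists and tests were chosen with earlier results of these data known. Named genes were the members, the called genes of each list or else its 2 smallest p, and the 8 rows most like Cd74, and any other gene is marked. A gene that this rule names is not reported here. Samples were grouped by title. Csf1r and Adgre1, 2 further reference genes, were not matched and not analysed here. Alternatives were other pseudocounts, filters, scalings, sample weights, a robust prior, voom, the replicate number as a block and leaving out hearts.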

Additional observations from a re-analysis of the deposited data

Results flagged for a closer look

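Among 44 checks for a heart far from the rest of its group, 4 stood out by the gap to the nearest heart (Dixon's criterion at the 95% level, by which about 1 in 20 groups stands out by chance). H2-Aa was at 56.2 FPKM in control 6, against 32.4 to 40.5 FPKM in the other controls. In the same heart, the one with liver transcripts, Jak1 was at 26.7 FPKM against 33.9 to 35.7 FPKM and Cd40 at 3.05 FPKM against 1.64 to 2.14 FPKM. Gbp6 was at 6.11 FPKM in control 5, 1 of the 2 hearts with low Apoe, against 4.22 to 4.53 FPKM in the other controls.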

How the results depend on the processing

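In all 22 alternative fits 0 class II genes were called, and their median difference stayed between −0.1233 and 0.1276 log2, within 1 SD of the spread between hearts (0.3029). The removal of 2 or 3 control libraries was chosen after seeing the data. The number of called rows moved from 15 to 5 with a filter at 5 FPKM, which also tested fewer rows. It moved to 25 with sample weights and to 25 with the replicate number as a block. When 1 heart was left out it lay between 10 and 32, with 32 without control 6. What caused these moves was not tested. The replicate numbers did not pair the hearts: same-numbered deviations correlated at −0.1183 to 0.2544, and 0 of 5 correlated best with their own number. Differences this near 0 changed sign easily. With the replicate block H2-Ab1 was 0.0458, H2-DMb2 0.0174 and Cd40 0.0320. H2-DMb2 was 0.0456 with a pseudocount of 0.1 and 0.0341 by voom, and Cd40 0.0915 with sample weights. Without controls 2 and 5, H2-Eb1 was −0.0406, H2-DMb2 0.1576, Cd274 −0.0473 and Ciita −0.0190. Without controls 2, 5 and 6, H2-Ab1 was 0.0977, H2-DMb1 0.0086, H2-DMb2 0.2583, Nfyb 0.0005 and Cd40 0.0096. Leaving out 1 heart gave −0.1061 to 0.1282 for Cd74, −0.1122 to 0.1414 for H2-Aa, −0.1406 to 0.0458 for H2-Ab1, −0.1003 to 0.1017 for H2-Eb1, −0.1344 to 0.0227 for H2-DMb1, −0.1683 to 0.0989 for H2-DMb2, −0.0629 to 0.0064 for H2-DMa, −0.0211 to 0.0490 for Ciita, −0.0191 to 0.1929 for Cd274 and −0.1178 to 0.0409 for Cd40. No class II difference passed in any of these. Of the 8 genes most like Cd74, 2 remained for deviations from the group means and 1 to 5 when 1 heart was left out. Depth limits Ciita (11 to 33 reads a heart) and H2-DMb2 (2 to 22) most.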
